A study of Rattus norvegicus with 2 samples.

Results

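The genes of 2 chemokine axes were followed through the cells of neonatal rat hearts: 5 genes in all, the ligands Cx3cl1 (ENSRNOG00000016326) and Cxcl12 (ENSRNOG00000013589) and their receptors Cx3cr1 (ENSRNOG00000018509), Cxcr4 (ENSRNOG00000003866) and Ackr3 (ENSRNOG00000019622). The 5 genes were taken by symbol from the 25399 gene identifiers of the count tables, and each symbol matched 1 identifier. Their values did not enter the choice of the list by any threshold, but the list was chosen with earlier results of these data known.

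Hearts came from Sprague-Dawley rats aged 1-3 days, males and females pooled, and the cells were enriched on a Percoll gradient for intrinsic cardiac adrenergic (ICA) cells, which make catecholamines. Cultured cells received lipopolysaccharide (LPS, a bacterial cell wall component, 1 µg/mL) or saline (control) for 2 h. They were then profiled on the 10x Genomics 3′ platform, which counts each captured transcript once by a unique molecular identifier (UMI). The question put to these data here is which cells carry the ligands and which the receptors, and how LPS moved each of them. There was 1 library per condition, made from pooled animals. No test between conditions was therefore possible, and differences in handling cannot be told apart from the treatment. All intervals below are 95% intervals for counting error only.

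The control library held 11531 cells (median 12479 UMIs) and the LPS library 12689 (median 9432), with 194 cell barcodes in common. The authors' clusters covered 24210 cells. Clusters 0, 1 and 7 were named Fibroblast (1 led by cycling genes, 7 by interferon genes), 4 and 5 Endothelial, 6 Macrophages and 3 ICA and Cardiomyocyte. Both samples carry the cell type label ICA, yet 55.4% to 57.2% of the clustered cells lay in cluster 0, and a UMI of Dbh, the enzyme that makes noradrenaline, was seen in 242 control cells (2.10%) and 160 LPS cells (1.26%). These Dbh shares were taken at the unequal depths of the libraries and are not read as a change. Cardiomyocyte markers were highest in cluster 3, at 6670 and 7107 CPM (UMIs of a gene per 1e+06 UMIs of the class), endothelial markers in cluster 4, at 1816 and 1700 CPM, and macrophage markers in cluster 6. Fibroblast markers were high in clusters 0, 1 and 7 but highest in cluster 9, at 17292 and 14515 CPM. Th, the tyrosine hydroxylase gene, had 0 UMIs in cluster 3 of both libraries. Of the clusters without a name, 2 was pericyte-like (Rgs5, Kcnj8, Abcc9) and 8 mesothelial-like (Msln, Upk1b, Bnc1). Cluster 9 was led by mitochondrial genes and Myh6, and cluster 10, with 42 cells, by Sox2, Gap43 and Sox10.

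CX3CL1, also called fractalkine, is made as a membrane protein with its chemokine domain on a long stalk. It can hold leukocytes at the cell surface or be cut loose by the proteases ADAM10 and ADAM17, and its receptor CX3CR1 is known from monocytes, macrophages and microglia. CXCL12 is a chemokine that stromal cells make without inflammation, and it guides progenitor cells and growing vessels through the G protein-coupled receptor CXCR4. ACKR3 binds CXCL12 too, but works through arrestins and takes the chemokine up, so that cells bearing it lower the amount outside.

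The stretches before the starts of both ligand genes are shown because both ligands were higher with LPS. They are the 250 bases upstream of the RefSeq start in the GRCr8 build, printed 5′ to 3′ in the direction of the gene. That of Cx3cl1 lies at chr19:10242821-10243070 on the minus strand and that of Cxcl12 at chr4:152060531-152060780 on the plus strand. Capitals mark matches on either strand to the core of a TATA-type promoter element, TATAAAA, and to the core bound by proteins of the Sp family, GGGCGG.

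Cx3cl1: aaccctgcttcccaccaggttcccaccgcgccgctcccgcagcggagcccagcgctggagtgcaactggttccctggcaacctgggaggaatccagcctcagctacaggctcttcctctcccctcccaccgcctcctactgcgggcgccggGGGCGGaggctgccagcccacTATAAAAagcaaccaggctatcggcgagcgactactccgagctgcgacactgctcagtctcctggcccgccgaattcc

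Cxcl12: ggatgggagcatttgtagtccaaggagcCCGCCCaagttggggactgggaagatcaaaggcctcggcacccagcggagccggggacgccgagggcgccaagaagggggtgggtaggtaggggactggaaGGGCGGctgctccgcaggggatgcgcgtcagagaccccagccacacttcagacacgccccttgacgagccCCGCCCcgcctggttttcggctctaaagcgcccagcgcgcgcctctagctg

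The Cx3cl1 stretch held TATAAAA 78 bases before the start and GGGCGG 99 bases before it. The Cxcl12 stretch held GGGCGG 3 times and no TATAAAA. Of all 33469 RefSeq stretches of this length, 5.38% held TATAAAA and 30.47% GGGCGG. The loose NF-κB pattern GGGNNNNNCC (in 42.32% of all stretches) and the AP-1 pattern TGANTCA (6.34%) matched in none of the 5 genes' stretches. These letters describe the windows and say nothing of which factor bound. The genome build behind the counts was not given in the sources used here.

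Cx3cl1 was higher with LPS in all 11 clusters. Over all clustered cells it went from 811 UMIs in control to 12430 in LPS, or 5.31 CPM against 97.4 CPM, a ratio of 18.3 (17.1 to 19.7). In the fibroblasts of cluster 0 the level was 3.48 CPM (3.11 to 3.89) in control and 95.3 CPM (93.1 to 97.5) in LPS, 27.4-fold higher (24.5 to 30.7). The highest LPS level was in cluster 9, the unnamed cells rich in mitochondrial, Myh6 and fibroblast marker RNA, at 257 CPM (72 UMIs) from 11.1 CPM (5 UMIs), a ratio of 23.2 (9.48 to 73.5). This was 1.41-fold (1.09 to 1.80) above cluster 5, the next in order. Endothelial cluster 5, whose leading genes include Selp, Plvap and Gja4, reached 182 CPM from 5.88 CPM, a ratio of 31.0 (20.9 to 48.2). Endothelial cluster 4 went from 6.02 to 106 CPM (ratio 17.7, 13.8 to 23.0). Cycling fibroblasts (3.29 to 87.5 CPM), pericyte-like cells (1.92 to 59.4 CPM), interferon-led fibroblasts (5.48 to 100 CPM) and mesothelial-like cells (2.70 to 41.0 CPM) lay between ratios of 15.2 and 30.9. Cluster 10 had 0 UMIs in control and 11 in LPS. Against the limit of 3 UMIs that a count of 0 allows, this is at least 3.31-fold higher.

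**Figure D1:**
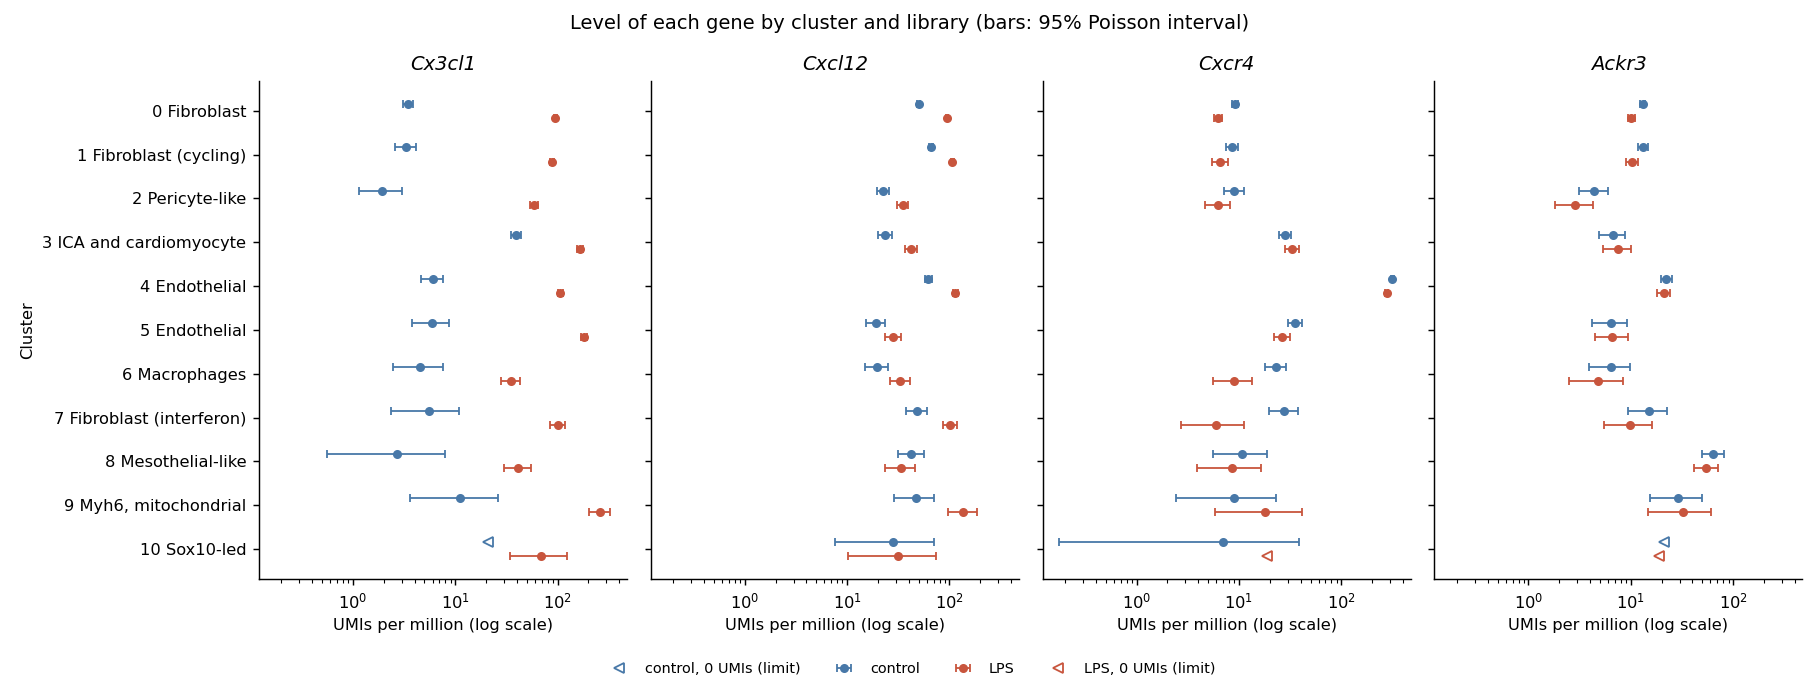
Level of Cx3cl1, Cxcl12, Cxcr4 and Ackr3 (CPM, log axis) in each of the 11 clusters, with control in blue and LPS in red. Points are the summed UMIs, bars the 95% Poisson interval, and open triangles the limit of 3 UMIs where none was counted. Cx3cl1 is further right in LPS in every cluster, and Cxcr4 stands apart in cluster 4 at 315 and 277 CPM.

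Among the clusters with UMIs in both libraries, the smallest Cx3cl1 ratio belonged to cluster 3, the ICA cells and cardiomyocytes. It went with the highest control level. Control cells of cluster 3 had 277 Cx3cl1 UMIs at 39.1 CPM, which was 3.52-fold (1.49 to 10.9) above the next cluster and 1124% of the level of cluster 0. With LPS the level was 166 CPM, a ratio of 4.24 (3.70 to 4.87). The difference in level, 127 CPM, was nevertheless above the 91.8 CPM of cluster 0. The next ratio was that of the macrophages of cluster 6, at 7.79 from 14 control and 87 LPS UMIs. Its interval overlaps that of cluster 3, as does the wide interval of mesothelial-like cluster 8. The low ratio of cluster 3 was thus not separated from those of clusters 6 and 8. Cluster 3 held 4.64% of all control UMIs and 34.2% of the control Cx3cl1 UMIs. In the LPS library it held 7.32% of them, and cluster 0 held 56.5%. Of all LPS UMIs, cluster 3 held 4.30% and cluster 0 held 57.8%. Cells of cluster 3 with a Dbh UMI (156 control, 121 LPS) had 34.2 and 173 CPM, and those without had 40.4 and 165 CPM. The ratios were 5.05 (3.61 to 7.16) and 4.08 (3.52 to 4.75), with overlapping intervals. This split was made at full depth, with medians of 8200 UMIs in control and 5379 in LPS for cells with a Dbh UMI. Cells without one can include cells whose Dbh was missed, so the split does not separate ICA cells from cardiomyocytes.

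**Figure D2:**
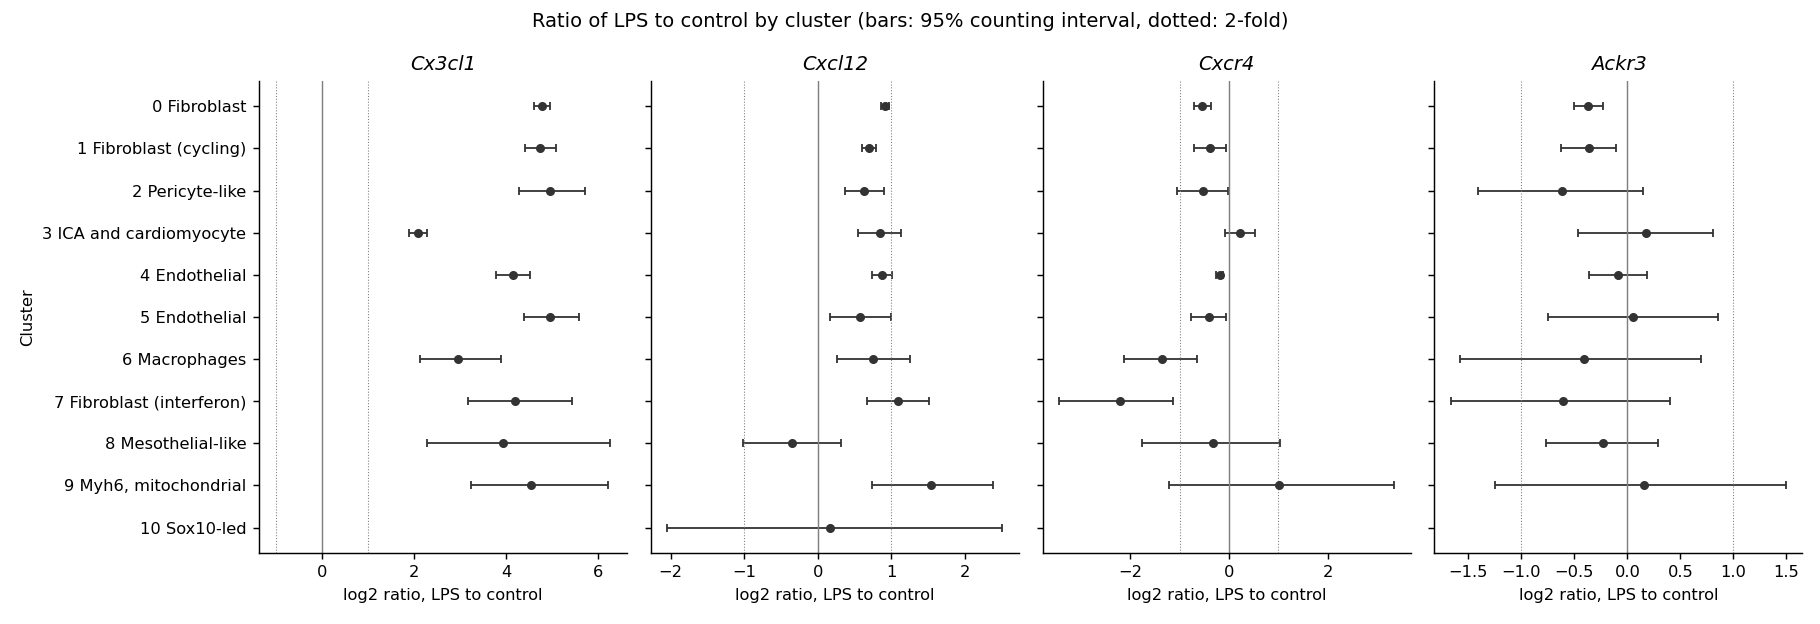
Ratio of LPS to control (log2 scale) of the 4 detected genes by cluster, with bars for the 95% counting interval and dotted lines at 2-fold. Clusters with 0 UMIs in a library are left out. For Cx3cl1 every ratio lies past 2-fold, and cluster 3 is the lowest at a ratio of 4.24. Its interval overlaps those of clusters 6 and 8.

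Within cluster 3 the Cx3cl1 levels of control and LPS cells ran in opposite directions along the mitochondrial share of the cells' UMIs. The cells of each library were put in 4 equal groups from low to high mitochondrial share, a split chosen after seeing the data. In control the level was 21.8, 33.1, 51.0 and 63.9 CPM from the lowest group to the highest. In LPS it was 212, 162, 131 and 126 CPM. The ratio of LPS to control was therefore 9.70 (7.28 to 13.2) in the group with the lowest share and 1.97 (1.49 to 2.61) in that with the highest, and these intervals do not overlap. Split by fibroblast markers instead, the ratio in cluster 3 was 2.83, 3.56 and 3.57 in the 3 groups with fewer of them and 7.35 (5.62 to 9.76) in the richest, where control was lowest (27.6 CPM) and LPS highest (203 CPM). Fibroblast markers also moved with the mitochondrial groups: they summed to 5912 CPM in the lowest control group and 2322 CPM in the highest, and to 6023 and 1551 CPM in LPS. Mitochondrial share and fibroblast markers were not separated from each other. In the split by fibroblast markers, the poorest group held 1681 CPM of them in control and 865 CPM in LPS. Groups of a rank were thus not matched between the libraries. The groups with the lowest mitochondrial share also had the most UMIs per cell, with medians of 10236 against 6435 in control and 8204 against 4354 in LPS. In the fibroblasts of cluster 0 the same split gave ratios from 21.9 to 31.4. With the cells over 10% mitochondrial UMIs left out, 55 control and 85 LPS cells of cluster 3 remained, and the log2 ratio of Cx3cl1 was 3.60 in place of 2.09. When cluster 3 was split by cardiomyocyte markers instead, the group with the most of them had the lowest Cx3cl1 in both libraries (24.1 and 126 CPM, against 37.3 to 47.9 and 160 to 198 CPM in the other groups).

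**Figure D3:**
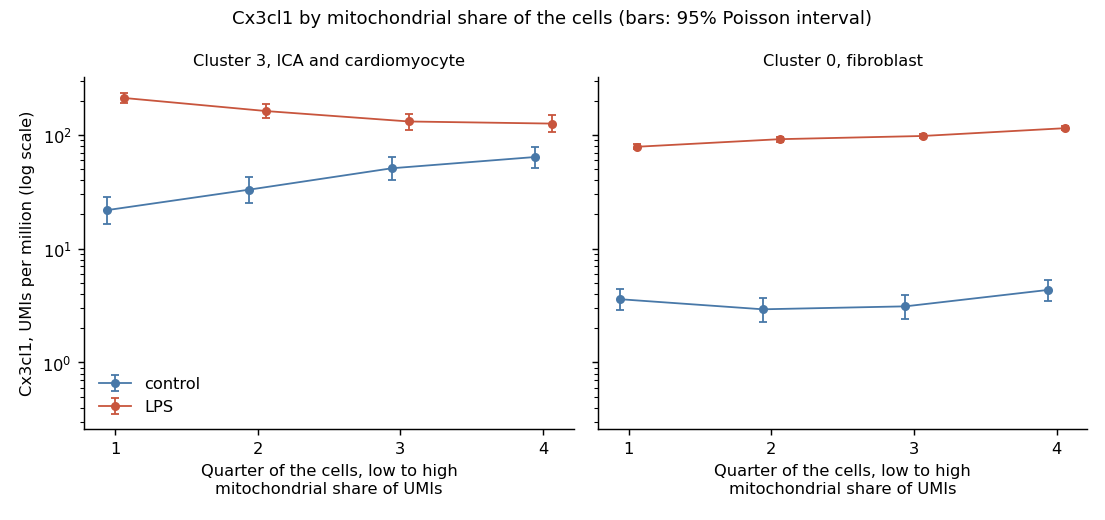
Cx3cl1 (CPM, log axis) in 4 equal groups of cells ordered by mitochondrial share of UMIs, for cluster 3 (left) and cluster 0 (right), control in blue and LPS in red, with 95% Poisson intervals. In cluster 3 the distance between the lines narrows from a ratio of 9.70 to 1.97, and in cluster 0 the ratios stay between 21.9 and 31.4.

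Shares of cells gave the same picture once depth was made equal by drawing 3000 UMIs from each cell. No control cell and 79 LPS cells were too shallow for this. A Cx3cl1 UMI was then seen in 1.06% of control and 23.1% of LPS fibroblasts in cluster 0, where full depth gave 4.39% and 55.0%. In cluster 5 it was 1.14% and 38.3%, and in cluster 3 11.6% and 33.3%. Macrophages had the lowest LPS values, 7.93% (5.09 to 11.7) after 0.712% in control, and 35.0 CPM. They were not separated from mesothelial-like cluster 8, whose LPS level was 1.17-fold (0.792 to 1.71) theirs and whose share was 12.3% (6.08 to 21.5). Fluid in a droplet carries free RNA from other cells, and the macrophages held fibroblast markers at 27.8% of their level in cluster 0 in the LPS library. Their Cx3cl1 was at 36.7% (29.4 to 45.4) of that of cluster 0, an interval that includes the highest of the 9 fibroblast markers (19.7% to 35.8%). Across 4 equal groups of LPS macrophages with increasing fibroblast markers, Cx3cl1 was at 17.3, 17.5, 36.9 and 53.9 CPM. The part of free RNA in the macrophage level was not tested. In the endothelial cells of cluster 5 the corresponding LPS groups had 171, 191, 207 and 162 CPM, and their level was above that of cluster 0 itself. LPS Cx3cl1 of pericyte-like cluster 2 stood at 62.3% of that of cluster 0, with 3 of the 9 fibroblast markers at or above it. Mesothelial-like cluster 8 stood at 43.0%, with 5 markers at or above, and cluster 10 at 72.4%, with 1. The part of free RNA in the Cx3cl1 of these clusters was not tested either.

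The receptor of Cx3cl1 was all but undetected. Cx3cr1 had 1 UMI among 24220 cells, in a control macrophage. In macrophages this is 0.321 CPM (0.00813 to 1.79) in control, and the 0 UMIs of 291 LPS macrophages allow up to 1.21 CPM. No difference was detectable at this depth. A count near 0 in these tables does not show absence: Mif, an alternative CXCR4 ligand that most cell types express, was also listed at 0 UMIs in each of the 6 clusters in which the pathway genes were read.

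Most Cxcl12 UMIs lay in fibroblasts and in endothelial cluster 4, and the ratios of LPS to control were smaller than those of Cx3cl1 in each cluster with UMIs in both libraries. Its control level was highest in cycling fibroblasts (66.1 CPM) and cluster 4 (62.3 CPM), which did not differ beyond counting error, and cluster 0 followed at 50.1 CPM. In LPS these clusters had 107, 114 and 94.5 CPM, and cluster 9 had the highest value at 136 CPM (38 UMIs), 1.19-fold (0.838 to 1.64) that of cluster 4 and so not separated from it. The ratios were 1.62 (1.51 to 1.73), 1.83 (1.67 to 2.02) and 1.89 (1.82 to 1.96). The interval lay above 1 in 9 of 11 clusters, with ratios from 1.49 in cluster 5 to 2.91 in cluster 9. The exceptions were mesothelial-like cluster 8, where 47 control and 35 LPS UMIs gave 0.788 (0.494 to 1.25), and cluster 10 with 4 and 5 UMIs. Cluster 0 held 60.7% of the Cxcl12 UMIs of the control library and 62.2% of those of the LPS library, and cluster 1 held 21.2% and 19.2%. Of the UMIs of all genes, cluster 0 held 59.3% and 57.8%, and cluster 1 held 15.7% and 15.8%. The Cxcl12 share of cluster 0 was thus near its share of all UMIs. After thinning, Cxcl12 was seen in 12.5% and 22.0% of the cells of cluster 0 in 17.2% and 25.8% of those of cluster 4 and in 16.7% (8.62 to 27.9) and 27.8% (16.5 to 41.6) of those of cluster 9.

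Between the endothelial clusters Cxcl12 and Cx3cl1 were ordered oppositely with LPS. Cluster 5 had 30.6% of the Cxcl12 of cluster 4 in control and 24.8% in LPS, while its LPS Cx3cl1 was 172% of that of cluster 4. In macrophages, where Cxcl12 was at 19.6 and 33.0 CPM, it stood at 39.1% and 34.9% of the level of cluster 0, and fibroblast markers summed to 33.3% and 27.8% of theirs. In the 4 groups of control macrophages by fibroblast markers, Cxcl12 was at 6.81, 12.6, 14.3 and 31.6 CPM. Cluster 3 behaved likewise, with 41.6 CPM of Cxcl12 in the control group richest in fibroblast markers and 12.0 to 16.7 CPM in the other groups. The groups were set within each library, so control and LPS groups of a rank were not matched in fibroblast markers. In the poorest group of macrophages these summed to 1378 CPM in control and 743 CPM in LPS. The ratios that follow are therefore not ratios at equal fibroblast content. Across these groups the LPS to control ratio of Cxcl12 in macrophages was 2.23, 1.25, 1.41 and 1.91. Only the last interval excluded 1 (1.25 to 2.95). In cluster 5 the ratio was 1.24, 1.27, 1.44 and 1.74, again with only the last interval above 1 (1.12 to 2.74). In cluster 3 it was 0.716, 1.96 (1.07 to 3.65), 1.31 and 2.09 (1.61 to 2.72). The intervals printed lay above 1 and the others included 1. LPS Cxcl12 of clusters 2 and 5 stood at 36.8% and 30.0% of that of cluster 0, with 4 and 2 fibroblast markers at or above it. Cxcl12 of cluster 9 stood at 93.2% of that of cluster 0 in control, with 8 of 9 fibroblast markers at or above it. In LPS it stood at 144% (102 to 198), with 3 at or above. The part of fibroblast RNA in these Cxcl12 values was not tested.

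**Figure D4:**
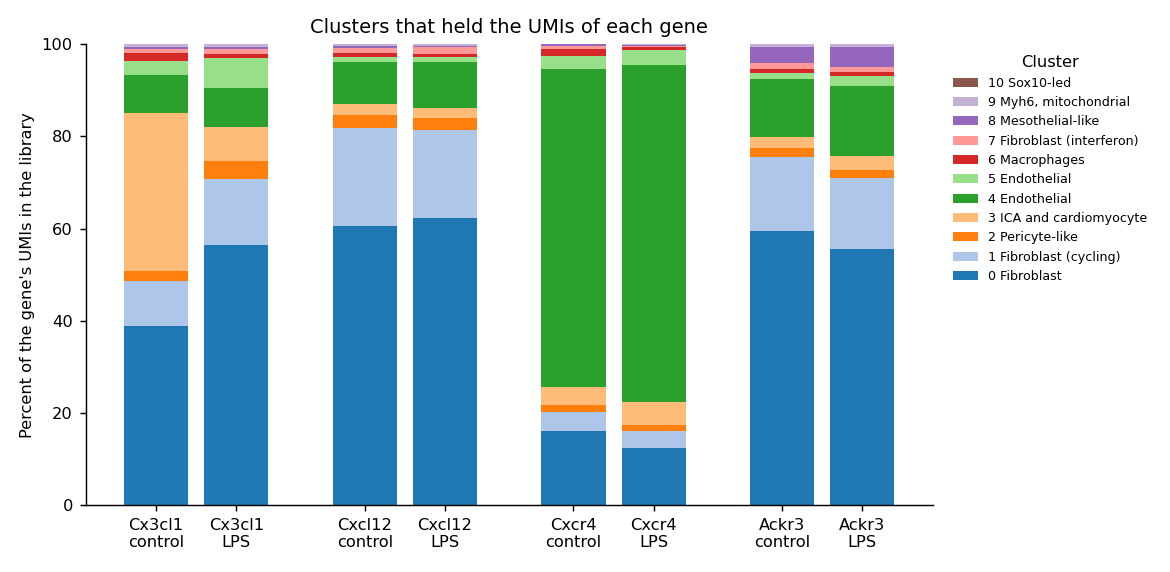
Percent of each gene's UMIs in a library (vertical axis) that lay in each of the 11 clusters, shown as stacked bars for control and LPS. Fibroblast clusters hold most of Cxcl12 and Ackr3, as they do of all UMIs (cluster 0 alone 59.3% and 57.8%). Endothelial cluster 4 holds 68.8% and 73.1% of Cxcr4, beside 7.29% and 7.63% of all UMIs. The share of cluster 3 in Cx3cl1 goes from 34.2% to 7.32%, beside 4.64% and 4.30% of all UMIs.

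Cxcr4 was concentrated in endothelial cluster 4, whose leading genes include Apln and Gpihbp1. This cluster held 6.27% of the control cells and 68.8% of the control Cxcr4 UMIs (3506 of 5096), and 73.1% in LPS (2695 of 3687). Its level was 315 CPM in control and 277 CPM in LPS, a ratio of 0.879 (0.835 to 0.924). This was 8.93-fold above the next cluster in control (cluster 5, 35.3 CPM) and 8.38-fold above it in LPS (cluster 3, 33.0 CPM). A Cxcr4 UMI was seen in 54.9% (51.2 to 58.6) of control and 52.9% (49.4 to 56.4) of LPS cells of cluster 4 after thinning, and in 84.9% and 78.9% without. Fibroblasts of cluster 0 gave 2.47% and 1.81% after thinning. Without thinning, 729 of 6600 control and 421 of 7030 LPS fibroblasts had a Cxcr4 UMI. Median depth was alike there, at 12968 and 9822 UMIs against 12499 and 9972 in cluster 4. Thinned to 1500 UMIs, with no cell left out, the shares of cluster 4 were 34.6% (31.1 to 38.2) in control and 28.6% (25.5 to 31.8) in LPS. Both depths gave overlapping intervals, and the share in LPS was the lower one at each.

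The separation of both endothelial clusters by Cxcr4 was far wider than by endothelial markers. Cluster 5 had 11.2% of the Cxcr4 of cluster 4 in control and 9.60% in LPS, but 74.8% and 67.5% of the summed markers Cdh5, Kdr, Tie1, Esam, Egfl7, Emcn and Vwf. Each of the 7 markers was above the Cxcr4 share in both libraries. In the fibroblasts of cluster 0 Cxcr4 was at 2.88% and 2.26% of its level in cluster 4. The markers there spanned 2.04% to 9.63% (control) and 1.33% to 9.39% (LPS), so that Cxcr4 lay within the range of endothelial RNA there, as it did in clusters 1 and 2. The ratios of LPS to control were 0.688, 0.764 and 0.690 in clusters 0, 1 and 2. They are given as values and not read as a change in those cells, and the part of free endothelial RNA in them was not tested.

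**Figure D5:**
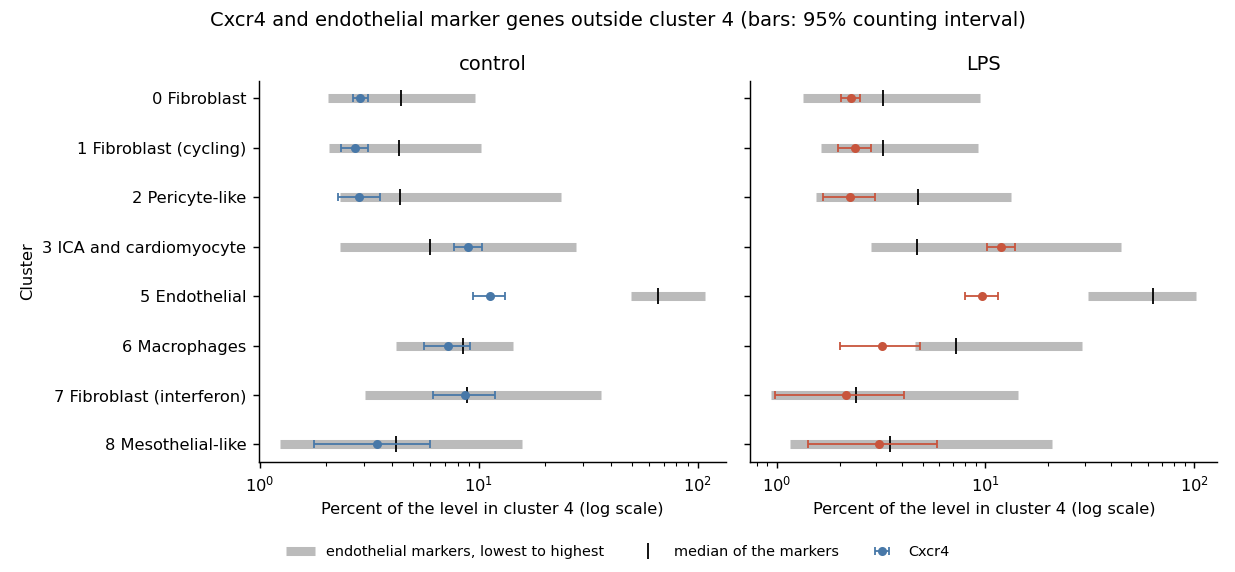
Cxcr4 (points, with 95% counting intervals) and 7 endothelial marker genes (grey bars from the lowest to the highest, black ticks at the median) in other clusters, as a percent of their level in cluster 4 on a log axis, for control (left) and LPS (right). In cluster 5 Cxcr4 is at 11.2% and 9.60%, left of every marker, and in clusters 0, 1 and 2 it lies within the range of the markers.

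In macrophages Cxcr4 had 71 control and 22 LPS UMIs, 22.8 and 8.85 CPM, a ratio of 0.388 (0.229 to 0.634). In control 4 of the 7 endothelial markers stood at or above its share of cluster 4 (7.23%), and in LPS all 7 stood above its 3.20%. The macrophage ratio is therefore given as a value too, and the part of free RNA in it was not tested. Summed endothelial markers in macrophages were at 142 and 193 CPM. As a percent of cluster 4, the median of the 7 markers was 8.44% and 7.25%, and the highest, Esam, 14.3% and 28.9%. Thinned shares of macrophages with a Cxcr4 UMI were 5.69% (3.29 to 9.08) and 1.38% (0.377 to 3.49), with intervals that overlap. In cluster 3 Cxcr4 was at 28.3 and 33.0 CPM, with a ratio of 1.17 that includes 1 (0.951 to 1.44). Interferon-led fibroblasts had 27.4 and 5.92 CPM (0.216), but 26 of the 40 control UMIs came from 1 cell. That cell had 38586 UMIs, of which 75 were of endothelial and 69 of fibroblast markers, and without it the control level was 9.85 CPM.

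Ackr3 had its highest level in the mesothelial-like cells of cluster 8, with 63.9 CPM (71 UMIs) in control and 54.3 CPM (57 UMIs) in LPS. In control this was 2.21-fold (1.21 to 4.35) above cluster 9, the next in order, and in LPS 1.69-fold (0.829 to 3.88), which is not beyond counting error. Endothelial cluster 4 followed at 22.3 and 21.0 CPM, and fibroblasts of cluster 0 had 13.1 and 10.1 CPM. Pericyte-like cells were lowest among the clusters with Ackr3 UMIs, at 4.38 and 2.86 CPM. The LPS ratio was below 1 beyond counting error only in clusters 0 (0.775, 0.706 to 0.850) and 1 (0.777, 0.649 to 0.930). In the other 8 clusters with UMIs the interval included 1, among them cluster 4 at 0.940 (0.777 to 1.14) and cluster 8 at 0.850 (0.589 to 1.22). After thinning 17.1% and 12.3% of the mesothelial-like cells had an Ackr3 UMI, against 3.86% and 2.82% in cluster 0.

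Cxcl12 and its receptor Cxcr4 were also found in the same cells of cluster 4. After thinning, 61 of 723 control cells (8.44%) and 106 of 796 LPS cells (13.3%) held a UMI of both, close to the 68.1 and 108 cells that the product of the separate shares gives. Cxcr4 and Ackr3 met in 31 and 35 cells of cluster 4, against products of 24.2 and 27.0. In the LPS fibroblasts of cluster 0, Cx3cl1 and Cxcl12 met in 321 of 7024 cells, against a product of 358. UMIs of both genes in a droplet can also come from 2 cells or from free RNA.

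Among all genes with at least 50 UMIs in a cluster, at least 2-fold was set as the mark of a large difference. In cluster 0, 3.44% of the genes were higher by this mark and 9.10% lower, and of 4 tested members Cx3cl1 was higher and none lower. Cx3cl1 was also the only member past 2-fold upwards in the 6 other clusters read. The background of higher genes there was 3.23% in cluster 1, 2.86% in cluster 2, 1.70% in cluster 3, 2.65% in cluster 4, 4.24% in cluster 5 and 4.82% in cluster 6. Downwards only Cxcr4 in cluster 6 passed, where 12.3% of genes did. The background of lower genes was 5.09% in cluster 1, 4.28% in cluster 2, 1.69% in cluster 3, 4.08% in cluster 4 and 4.56% in cluster 5. The median log2 ratio of all tested genes was -0.13 in cluster 0, -0.12 in cluster 2 and -0.31 in cluster 6, and relative to it Cxcl12 in cluster 0 stood at 1.05 on the log2 scale. Relative to the median of cluster 6, Cxcr4 stood at -1.06. Cxcl12 in cluster 6, at 0.75 before this scaling, was also past 2-fold upwards relative to that median.

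A list of 28 symbols of further genes that act on these ligands and receptors was read in 6 clusters, and 26 of the symbols were in the gene table. In cluster 0, 2 of 21 tested genes were higher by at least 2-fold and 1 lower, beside 3.44% and 9.10% of all genes. In cluster 5, 4 of 16 were higher and 0 lower (4.24% and 4.56% of all genes), and in macrophages 2 of 15 were higher and 2 lower (4.82% and 12.3%). Of 16 tested in each of clusters 2, 3 and 4, 1, 1 and 2 were higher and 0 lower, beside 2.86%, 1.70% and 2.65% higher among all genes. Of the proteases that free or trim the ligands, Adam17 was at 15.8 and 31.5 CPM in cluster 0 (ratio 2.00, 1.87 to 2.14, just under the mark) and past it in cluster 5 (18.8 to 44.6 CPM, ratio 2.37). Adam10 was lower by less, at 5.62 and 3.44 CPM in cluster 0 (0.612) and 18.4 and 11.3 CPM in cluster 4 (0.613). In macrophages Mmp9, a gelatinase, was at 182 CPM in control and 897 CPM in LPS, and Mmp14, a membrane-bound protease, at 89.6 and 198 CPM.

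Among the other ligands of CXCR4 and ACKR3, Cxcl11, a ligand of ACKR3, was 5.62-fold higher in cluster 0 and 12.8-fold higher in cluster 5. In cluster 3 it was 55.9 CPM in control and 65.1 CPM in LPS, so that cluster 3 had the highest control level of the 6 clusters for Cxcl11 as for Cx3cl1. Adm, which encodes adrenomedullin, a vascular peptide that ACKR3 can also bind, was 4.87-fold higher in cluster 5 and 2.28-fold in cluster 0. Cd74, a receptor for MIF, was lower in macrophages (87.3 and 38.2 CPM). Of the G proteins, kinases and arrestins, 5 to 7 were tested in a cluster and 2 passed the mark: Grk5, a receptor kinase, in cluster 5 (10.6 and 22.2 CPM) and Arrb2, the beta-arrestin-2 gene, in macrophages (41.7 and 11.3 CPM, ratio 0.270). Of 4 integrin genes whose products bind the CX3CL1 chemokine domain, 3 had enough UMIs to be tested in cluster 0 and 1, Itgb1, in each of the other clusters, and no tested one passed the mark.

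The genes most like each member were sought among 12477 genes by Pearson's r of log2(CPM + 1). It was taken over the 8 clusters of at least 100 cells in each library, 16 points in all. Points of a library share its depth and its free RNA, so these values are descriptions. Cx3cl1 was higher with LPS in all 8 clusters, so its r cannot be told apart from the split of the points by library. For Cx3cl1 they were Ccl20 (a chemokine, r = 0.92), Jak2 (0.92), Traf2 (0.91), Herc1 (0.91) and Zswim4 (0.91). For Cxcr4 they were LOC100909474 (0.96), Plekhm1 (0.95), Apln (0.95), Depp1 (0.95) and Pik3r6 (0.95). Cxcr4 was at 315 and 277 CPM in cluster 4 and at most 35.3 CPM in any other, so its r leans on the points of cluster 4. Ackr3 was most like Col15a1 (0.98), a basement membrane collagen, then Lpar4 (0.89), Map4k3 (0.86), Cyb561 (0.85) and Qprt (0.85). Clusters 8 and 9, where Ackr3 was highest, had fewer than 100 cells in each library and gave no points. The r of Ackr3 thus does not cover its highest levels. Cxcl12 had weaker neighbours, with Ext1 (0.85), Msln (0.83), Mrpl21 (0.83), Sssca1 (0.81) and Apip (0.80). The r of Msln was likewise taken without cluster 8, of which Msln is a leading gene. Between members r ranged from -0.11 for Ackr3 and Cx3cl1 to 0.67 for Ackr3 and Cxcl12.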

How the data were processed

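Single-cell RNA was measured in 2 libraries, control and LPS, with 1 library per condition. Per the submitters' processing notes the authors used Cell Ranger 2.2.0 and Seurat 2.3.4. The genome build and annotation were not given in the sources used here. The deposited values were raw UMI counts per gene and cell, and the authors' deposited cluster number and cell type name were taken for each cell. The clusters were made by the authors from the same cells, so no test of a cluster against the rest was made.

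UMIs of a gene were summed over the cells of a cluster and library and given per 1e+06 UMIs of that class (CPM). Levels carry exact Poisson intervals, ratios of LPS to control an exact conditional binomial interval and shares exact Clopper-Pearson intervals, all at 95%. These reflect counting error alone. For a count of 0 the limit was 3 UMIs. Large differences were those of at least 2-fold among genes with at least 50 UMIs over both libraries. Shares of cells were computed after thinning each cell to 3000 UMIs. No doublet caller was run, and an alternative dropped the deepest 10% of each cluster and library. The ratio, its interval and the 2-fold mark were tested on simulated Poisson sums, which hold no variation between cells or libraries. Thinning, marker percents, groups of cells and correlations were not simulated.

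The members and gene lists were chosen with earlier results of these data known. Named genes were the 5 members, the pathway list, the marker lists and, for each member, the 5 genes with the highest correlation. The groups of cells by marker or mitochondrial share, and leaving out the cell with the most UMIs, were chosen after seeing the data. These groups were set within each library. Promoter windows came from RefSeq (GRCr8), and all 5 members matched. The listed symbols Adrbk1, Adrbk2, Pecam1, Ttn and Cd79a were not in the gene table. Of the other fixed lists, smooth muscle markers were highest in cluster 2 (2430 and 2350 CPM), cycling markers in cluster 1 (589 and 578 CPM), interferon genes in cluster 7 (751 and 2509 CPM), Schwann cell markers in cluster 10 (577 and 364 CPM), macrophage markers in cluster 6 (2338 and 1607 CPM), pericyte markers in cluster 2 (1314 and 1067 CPM), mesothelial markers in cluster 8 (538 and 633 CPM) and ICA markers in cluster 3 (75.0 and 81.7 CPM). Neutrophil markers reached at most 23 CPM (cluster 6, LPS), and markers of T and B cells were at or near 0 in every cluster. Python 3.11.15 with numpy 2.4.6, scipy 1.17.1, pandas 2.3.3 and matplotlib 3.10.9 was used.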

Additional observations from a re-analysis of the deposited data

Results flagged for a closer look

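Cxcl12 in the mesothelial-like cells of cluster 8 had a ratio of LPS to control of 0.788, on the other side of 1 from the 1.89 of the fibroblasts in cluster 0. Cxcr4 in cluster 3 had a ratio of 1.17, on the other side of 1 from the 0.879 of endothelial cluster 4. With 1 library per condition neither difference was tested over replicates, and the counting intervals of 0.788 and of 1.17 include 1.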

How the results depend on the processing

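No paired analysis was possible because 1 library per condition leaves no pairs. Of 387 log2 ratios recomputed under the alternatives, 376 stayed within the counting interval of the reported value and 11 left it. Where the reported interval excluded 1, 0 changed direction. Changes of direction among ratios whose interval included 1 were not counted. Median-of-ratios scaling gave 1.05 for Cxcl12 in cluster 0 (0.92 as reported) and -0.10 for Cxcr4 in cluster 4 (-0.19), and pooling both endothelial clusters gave -0.27 for Cxcr4. Cluster 5 alone was at -0.41 for Cxcr4, and it held 2.78% of all control UMIs and 3.57% of all LPS UMIs. Of 27 pairs of member and cluster, 7 were past 2-fold upwards and 1 downwards. At 1.5-fold these were 13 and 2, and at 3-fold 0 were lower. With at least 100 UMIs 0 of 23 were lower and with at least 1 UMI 2 of 29 were. Those at 1 UMI were Cxcr4 and Cx3cr1 in cluster 6, and Cx3cr1 had only 1 control UMI and 0 in LPS. Median-of-ratios scaling put Cxcl12 in clusters 0 and 6 past 2-fold upwards as well. Shares of all genes past these other marks were not computed, so the counts are not read against them. Percentages of cells with a UMI followed the depth, as thinning by construction removes UMIs. Thinned to 1500 UMIs and unthinned, Cx3cl1 in cluster 0 was at 0.561% and 4.39% in control and 13.0% and 55.0% in LPS. Cxcl12 there was at 7.50% and 41.3% in control and 12.8% and 50.7% in LPS. Cxcr4 in cluster 4 was at 34.6% and 84.9% in control and 28.6% and 78.9% in LPS. Ackr3 in cluster 0 was at 2.08% and 14.6% in control and 1.34% and 9.20% in LPS. The causes of the other shifts were not tested. Cx3cr1, with 1 UMI, was left out of the recomputed ratios, and the cause of its low count was not tested.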
